A study of Mus musculus with 18 samples.

Results

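The microRNA hairpin miR-21a yields 2 mature strands, the abundant miR-21a-5p (entry mmu-miR-21a-5p) and the rare miR-21a-3p (entry mmu-miR-21a-3p), which are 2 of the 1251 microRNA entries measured by small RNA sequencing in the skin and skin tumours of Hairless mice. They were chosen by name. The animals were 6 female SKH-1E Hairless littermates (mice 2, 3, 7, 8, 9 and 10), a hairless strain prone to ultraviolet-induced skin tumours, and all were irradiated chronically as adults with low-dose ultraviolet light from solar simulators. From each mouse came 1 library of nonlesional, chronically irradiated skin (CHR), 1 of a papilloma (PAP) and 1 of a cutaneous squamous cell carcinoma (cuSCC), so each sample type had n = 6. Skin without ultraviolet exposure was not analysed here, so CHR is chronically exposed and not normal skin, and the tumours were whole tissue pieces of low histological grade.

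A microRNA is cut from its hairpin as a short duplex, of which 1 strand is kept by an Argonaute protein while the other, the passenger strand, is mostly degraded. The kept strand represses mRNAs that pair with its seed, bases 2 to 8. miR-21 is among the microRNAs most often raised in epithelial cancers, it represses the tumour suppressor Pdcd4, and its transcription responds to AP-1 and STAT3. It is made by keratinocytes as well as by fibroblasts and leukocytes, and in bulk tissue a change in the number of cells of a type cannot be told apart from a change in the RNA of each cell.

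The mature strands are shown first because the arms are told apart, and separated from their relatives, by sequence alone. Capitals mark the seed, and the sequences are those of RefSeq on GRCm38.p6, which gave a mature sequence for 1001 of the 1251 entries.
miR-21a-5p: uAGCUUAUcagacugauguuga
miR-21a-3p: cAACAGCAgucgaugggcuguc
miR-21c: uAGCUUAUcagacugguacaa
miR-21b: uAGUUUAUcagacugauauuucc
The arms have different seeds and so pair with different mRNAs. miR-21a-5p lies at chr11:86584120-86584141 and miR-21a-3p at chr11:86584082-86584103, both on the minus strand of GRCm38. They occupy bases 18 to 39 and 56 to 77 of the 92-base hairpin and are separated by 16 bases. The hairpin lies in exon 12, the last of the 12 exons of a transcript of Vmp1 on the same strand, within its untranslated part. Among the entries with a sequence, miR-21c shares the seed of miR-21a-5p, and none shares that of miR-21a-3p. Entries without a sequence, the 5p arm of miR-590 among them, could not be checked for either seed. Counted from the 5′ end without gaps, with the base of miR-21a-5p given first, miR-21c differs at A16G, G18A, U19C, U20A and G21A, and miR-21b, whose seed differs, at C4U, G18A, G21U and A22C. Both relatives stood at the lowest value of the table in all 18 libraries.

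Values are log2 ppm, shares of the usable reads, after quantile normalization between libraries, which gives nearly the same value to the same rank in every library in which that rank was detected. They therefore express a place in the order of a library's microRNAs rather than a share of its reads. Summed on the linear scale, the values of a library exceed a true ppm total by 2.35 to 2.36 log2 units. Thus ppm names the scale of the values here and not an actual share. Entries at the lowest value, 3.32 or 10 ppm, were taken as undetected. The number of detected entries differed between libraries, with 163 to 281 in PAP, 200 to 328 in CHR and 236 to 365 in cuSCC. The lowest value at which anything was detected in a library ran from 3.32 to 6.83. The PAP of mouse 10 had the fewest detected entries and the highest detection limit, followed by the PAP of mouse 7 (171 entries, limit 6.72), and the cuSCC of mouse 10 had the fewest entries of its type (236). Results are also given without the PAP or the cuSCC of mouse 10.

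miR-21a-5p was highest in cuSCC in every comparison of sample type means and rose between CHR and cuSCC. It was present in all 18 libraries. In CHR it ran from 11.03 through a median of 12 to 12.87, in PAP from 12.30 through 12.91 to 15.03, and in cuSCC from 14.33 through 14.90 to 15.82. All 6 cuSCC libraries were above all 6 CHR libraries, and each mouse showed the rise, by 1.46 in mouse 9 to 3.995 in mouse 3. The difference was 2.94 on the log2 scale (95% interval 2.17 to 3.72, SE 0.36, limma adjusted p = 3.73e-05), a 7.69-fold rise in the normalized values. Of the 293 microRNAs tested, 42.3% passed in this comparison in either direction and 20.1% passed as higher, so that many changed, but this was the 6th largest rise. A complete separation of this kind, every cuSCC above every CHR library, was found for 9.9% of the tested microRNAs. The order in the library shows the same change on a plainer scale. Counted from the most abundant entry, miR-21a-5p held places 36 to 66 in CHR, against 17 to 44 for the papillomas and 11 to 22 for the carcinomas. By mean level it was the 47th entry in CHR, the 30th in PAP and the 17th in cuSCC. In cuSCC the 3 highest entries were miR-205-5p, a microRNA of squamous epithelium, miR-10b-5p and miR-191-5p, at means of 18.08, 17.71 and 16.97. miR-205-5p was also highest in PAP (18.22), ahead of miR-486-5p and miR-3107-5p (both 17.67), while CHR was led by miR-181a-5p (17.90), miR-205-5p (17.87) and miR-191-5p (17.71).

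**Figure D1:**
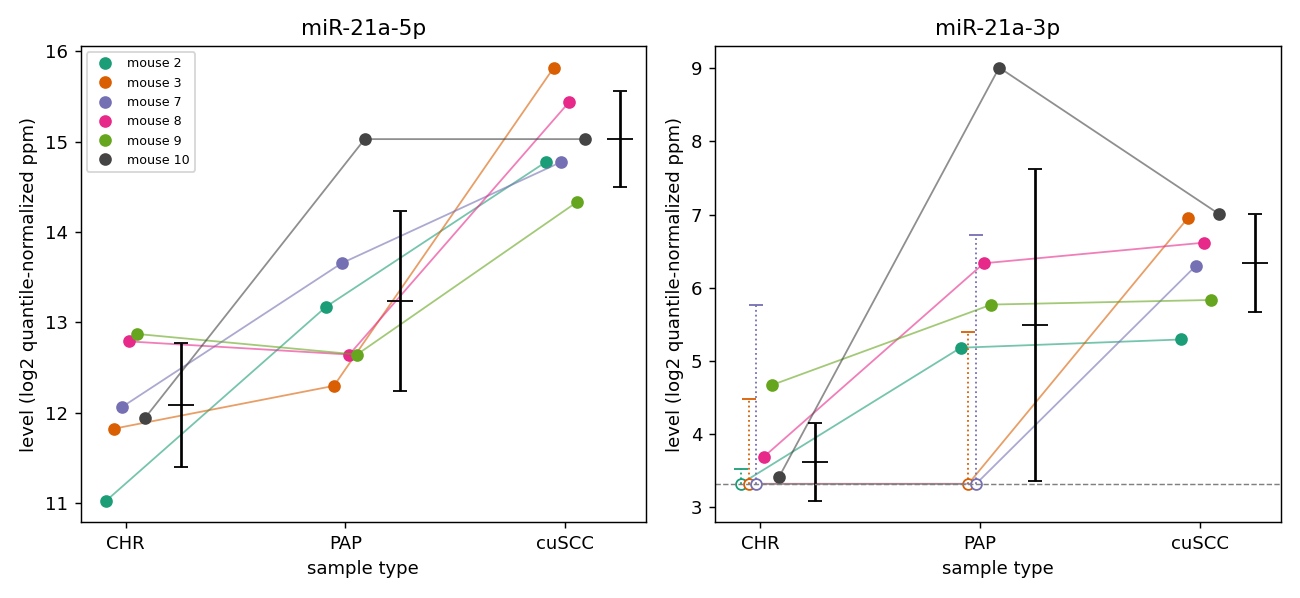
Level of miR-21a-5p (left) and miR-21a-3p (right) in log2 quantile-normalized ppm in CHR, PAP and cuSCC, with 1 point per library, lines joining the 3 libraries of a mouse, and black marks for the mean and SD of 6 libraries. Open points at the dashed line of 3.32 were not detected, and the dotted lines above them reach the lowest detected value of that library. All cuSCC points lie above all CHR points for both arms, although for the 3p arm the dotted line of the CHR of mouse 7 reaches past the lowest cuSCC point, whereas the PAP points spread between them and those of mouse 10 reach or pass the cuSCC of the same mouse.

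The papillomas were divided. miR-21a-5p in PAP exceeded that in CHR of the same mouse by 3.09 in mouse 10, 2.15 in mouse 2 and 1.59 in mouse 7. It differed by 0.47 in mouse 3, -0.14 in mouse 8 and -0.23 in mouse 9. In 3 of 6 PAP libraries the level lay above every CHR library, and in the other 3 it lay within the CHR range. The mean difference was 1.15 (95% interval 0.13 to 2.18, SE 0.47) and did not pass over all microRNAs (limma adjusted p = 0.08), where 32.4% of those tested did. It did pass when the filter required detection in all 18 libraries (limma adjusted p = 0.0283) and when the 3 sample types were fitted together (limma adjusted p = 0.0467). Without the PAP of mouse 10 it was 0.80 (limma adjusted p = 0.136).

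Between PAP and cuSCC, miR-21a-5p rose by 1.79 (95% interval 0.81 to 2.77, SE 0.45, limma adjusted p = 0.0383), where 9.22% of the tested microRNAs passed as higher. The levels were higher in cuSCC in 5 of 6 mice, by 1.12 to 3.52. In mouse 10 they were identical at 15.03, since the arm held place 17 in both libraries. The groups overlapped, with 2 of 6 cuSCC libraries above every PAP library. With mouse as a replicate block the call was lost (limma adjusted p = 0.0549). It was also lost when mouse 2, 3, 7, 8 or 9 was left out in turn, with limma adjusted p-values between 0.0661 and 0.172. Without the PAP of mouse 10 the difference was 2.15 (limma adjusted p = 0.00661), and without the cuSCC of mouse 10 it was 1.79 (limma adjusted p = 0.0294). In 3 mice the second step, from papilloma to carcinoma, was the larger, and in the other 3 the first. The mean difference between both steps, 0.63, was far within the spread between mice (exact sign-flip permutation test over 6 mice, two-sided, p = 0.62, where the smallest possible p is 0.0312).

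miR-21a-3p, the passenger strand, was rare but moved in the same direction. It was detected in 3 of 6 CHR, 4 of 6 PAP and 6 of 6 cuSCC libraries. In CHR the detected values were 3.42 in mouse 10, 3.69 in mouse 8 and 4.67 in mouse 9, close to the lowest value. In PAP it was undetected in mice 3 and 7 and stood at 5.18 in mouse 2, 5.77 in mouse 9, 6.34 in mouse 8 and 9.01 in mouse 10. In cuSCC it ran from 5.29 through a median of 6.46 to 7.01. All 6 cuSCC libraries were thus above the 3 CHR libraries in which it was detected. The difference between cuSCC and CHR was 2.71 (95% interval 1.94 to 3.48, SE 0.36, limma adjusted p = 7.75e-05), the 8th largest rise of the 293 tested. The undetected CHR libraries of mice 2, 3 and 7 had detection limits of 3.52, 4.48 and 5.77, so that in mouse 7 the 3p arm could have been above the lowest cuSCC value, 5.29 in mouse 2, without being seen. With undetected values at these limits the rise was 2.08 and still passed (limma adjusted p = 0.00172). Under a stricter floor of 100 ppm, which miR-21a-3p exceeded in 3 of 18 libraries, the difference was 0.11 and did not pass (limma adjusted p = 0.253).

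In PAP, the 4 libraries in which miR-21a-3p was detected stood above the 3 such CHR libraries, and those of mice 8 and 10 also above every CHR detection limit. The mean difference of 1.87 (95% interval 0.10 to 3.63) did not pass (limma adjusted p = 0.1), although it did when each undetected value was raised to the detection limit of its library (2.14, limma adjusted p = 0.0113) and with all 3 types fitted together (limma adjusted p = 0.0495). Without the PAP of mouse 10 it was 1.16 (limma adjusted p = 0.144). PAP and cuSCC overlapped in full, with a mean difference of 0.85 (95% interval -0.96 to 2.66, limma adjusted p = 0.526), or 1.55 without the PAP of mouse 10 (limma adjusted p = 0.107). When undetected values were raised to the detection limit this difference turned to -0.0670. Where it was detected, the 3p arm held places 232 to 317 in CHR and 157 to 210 in cuSCC. Its places in PAP were 100 to 208, and the place of 100 was that of mouse 10.

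The difference between the arms, 5p minus 3p within a library, asks whether the strands moved together or whether the balance between them shifted. Both arms of this hairpin rose between CHR and cuSCC, and CHR had an arm difference of 8.46 ± 0.47 (SD, n = 6) against 8.69 ± 0.49 in cuSCC and 7.75 ± 1.68 in PAP. Between cuSCC and CHR it changed by 0.23 (95% interval -0.52 to 0.98, limma adjusted p = 0.615 over 67 hairpins with both arms tested), where 41.8% of these hairpins passed, and by 0.87 with undetected 3p values at the detection limit (limma adjusted p = 0.13). Neither did it pass between PAP and CHR, at -0.71 (95% interval -2.12 to 0.70, limma adjusted p = 0.571, with 7.46% of hairpins passing), nor between cuSCC and PAP, at 0.94 (95% interval -0.47 to 2.35, limma adjusted p = 0.535, with 4.48% passing). In the 13 libraries with both arms detected, the 5p value was 64.8-fold to 715-fold that of the 3p arm, with a median of 355-fold. For comparison, the median arm difference of the other hairpins detected on both sides lay between -1.02 and 0.51 in each library. It is taken over hairpins dominated by either arm, so it does not show that the others were balanced. In CHR the arm difference of miR-21a was 9.10 in mouse 8 (place 5 of 68 hairpins with both arms detected), 8.52 in mouse 10 (place 10 of 79) and 8.20 in mouse 9 (place 10 of 66). In cuSCC it was 9.48 in mouse 2 (place 7 of 97), 8.86 in mouse 3 (7 of 80), 8.82 in mouse 8 (3 of 54), 8.50 in mouse 9 (8 of 70), 8.47 in mouse 7 (9 of 68) and 8.02 in mouse 10 (5 of 47). The hairpin thus stood among those most tilted to the 5p arm in each of these libraries. Places count from the highest 5p minus 3p, so hairpins dominated by the 3p arm come last. Some of those were more one-sided than miR-21a, such as miR-22 with means of -11.50 in CHR and -12.93 in cuSCC. By mean over libraries it was 10th of 67 in CHR, 11th in PAP and 8th in cuSCC. The leaders were miR-205 (10.93), miR-125a (10.85) and miR-146b (10.51) in CHR. They were miR-486 (10.74), miR-3107 (10.73) and miR-146b (10.28) in PAP, and miR-146b (11.08), miR-486 (10.77) and miR-3107 (10.76) in cuSCC. The 5p arms of miR-486 and miR-3107 had identical means in each sample type, so these hairpins are not independent leaders.

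In papillomas the arm difference depended on how an undetected 3p arm was read. Where both arms were detected it was 7.99 in mouse 2 (place 7 of 49), 6.87 in mouse 9 (6 of 38), 6.31 in mouse 8 (12 of 60) and 6.02 in mouse 10 (6 of 25). These 4 values lay below the 3 of CHR (8.20 to 9.10) and the 6 of cuSCC (8.02 to 9.48), although libraries were included here only where the 3p arm was high enough to be seen. In the remaining PAP libraries it lay between 6.90 and 8.98 in mouse 3 and between 6.93 and 10.33 in mouse 7, the lower value holding if the 3p arm was just at the detection limit and the upper if it was at 3.32. With the former reading the mean was 6.84 ± 0.68 (SD, n = 6) in PAP and 7.83 ± 0.99 in CHR, and that of cuSCC stayed at 8.69 ± 0.49. The difference between cuSCC and PAP was then 1.85 and passed (limma adjusted p = 0.0046). Under the floor of 100 ppm, at which most 3p values are cut, it was 2.07 (limma adjusted p = 0.000306). Leaving that floor aside, whether the balance of strands differed between papillomas and carcinomas thus depended on how the undetected 3p arm of mice 3 and 7 was treated.

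**Figure D2:**
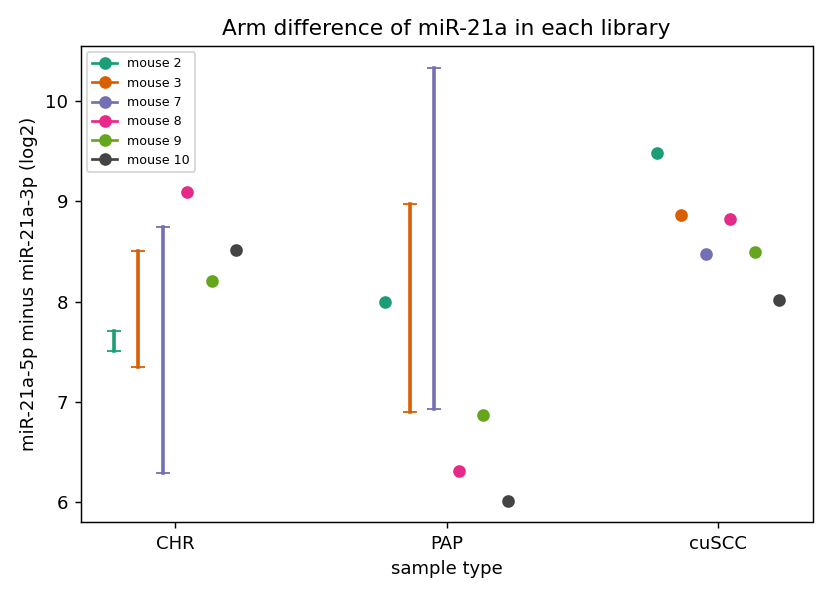
Arm difference of miR-21a, 5p minus 3p on the log2 scale, in each library of CHR, PAP and cuSCC, coloured by mouse. Points are libraries with both arms detected, and bars span the values possible where the 3p arm was not detected, from the detection limit of the library (lower end) to the lowest value of the table (upper end). The 4 PAP points lie at 6.02 to 7.99, while the bar of mouse 7 reaches 10.33.

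The joint rise of both strands was set against the other hairpins. Between CHR and cuSCC both arms passed as higher for 7 of 67 hairpins (10.4%). These were miR-21a, miR-31, miR-141 and miR-200a of the epithelial miR-200 family, miR-126 of endothelium, miR-872 and miR-28a. The rise of miR-21a-5p was the largest of the 67 5p arms. That of miR-21a-3p was the largest of the 67 3p arms with undetected values at 3.32, a place that depends on the 3 undetected CHR libraries. Its arms differed in their change by 0.23 on that reading and by 0.87 with undetected values at the detection limit, and the median gap over the 67 hairpins was 0.96 on the former. In 18 of the 67 the arms changed in opposite directions. Between CHR and PAP neither miR-21a arm was called, while both arms passed as higher for 5 of 67 hairpins (7.46%), miR-31 among them.

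**Figure D3:**
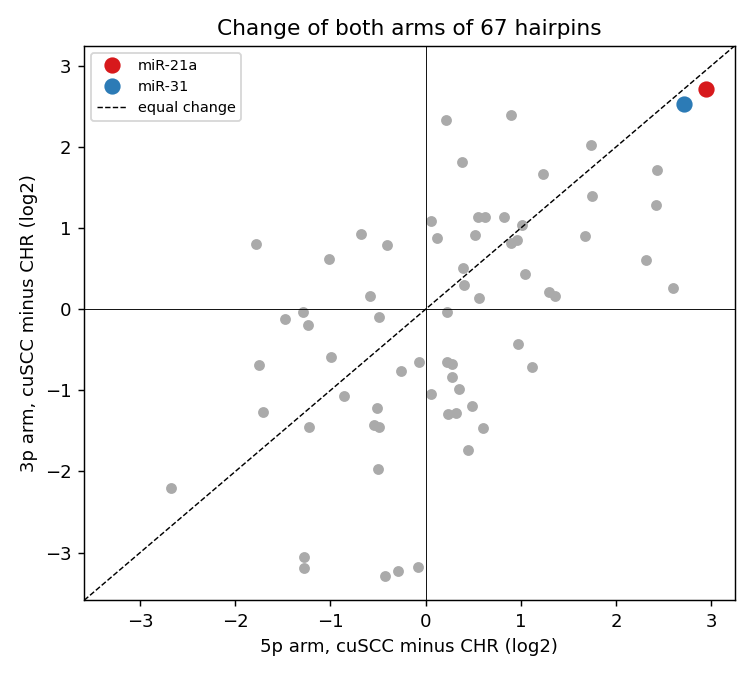
Change between CHR and cuSCC of the 5p arm (horizontal) and the 3p arm (vertical), in log2 differences of group means, for 67 hairpins with both arms tested. miR-21a lies at 2.94 and 2.71, close to the dashed line of equal change and with the largest rise on both axes, with miR-31 next to it. Undetected values stand at 3.32 here.

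miR-31, whose 5p arm is a marker of proliferating and wounded epidermis, was compared with miR-21a because both of its arms also rose. Its 5p arm stood at 11.95 ± 0.65 (SD, n = 6) in CHR, reached 15.15 ± 0.73 in PAP and was at 14.66 ± 0.82 in cuSCC. Its arm difference changed by 0.19 between cuSCC and CHR (limma adjusted p = 0.684). miR-21a-5p minus miR-31-5p was 0.14 ± 1.09 (SD, n = 6) in CHR and 0.37 ± 0.73 in cuSCC, but -1.91 ± 1.23 in PAP. The mean in PAP differed from that in CHR by -2.05 and was lower in 6 of 6 mice. The mean in cuSCC was 2.28 above that in PAP, with 5 of 6 mice higher, and differed from CHR by 0.23. In papillomas miR-31-5p was the higher in every mouse, with miR-21a-5p minus miR-31-5p running from -3.52 in mouse 3 to -0.12 in mouse 10. The comparison with miR-31 was chosen with the course of both microRNAs already known, so these values are a description.

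**Figure D4:**
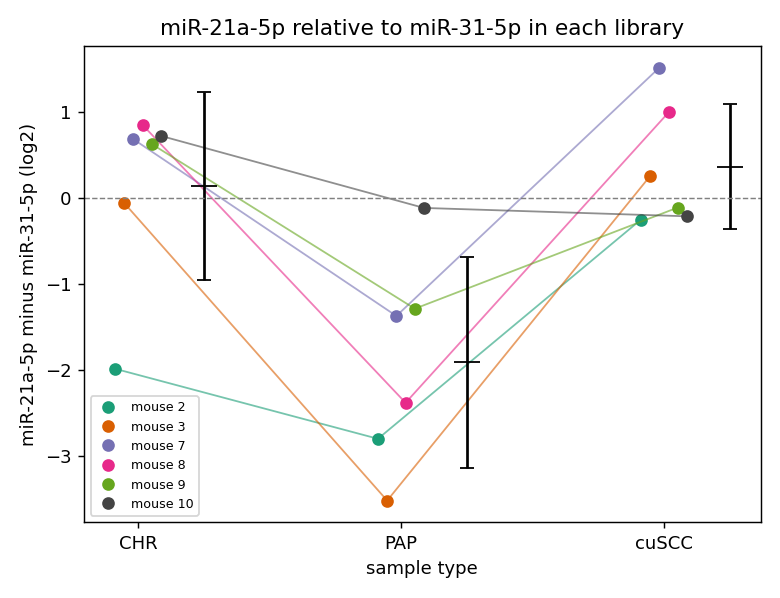
miR-21a-5p minus miR-31-5p on the log2 scale in each library of CHR, PAP and cuSCC, with lines joining the libraries of a mouse and black marks for the mean and SD of 6 libraries. Every PAP value lies below 0 and below that of CHR in the same mouse, and the values return to between -0.25 and 1.52 in cuSCC.

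The microRNAs with the course most like that of miR-21a-5p were found by the root mean square difference of profiles over the 18 libraries, each centred on its own mean, with libraries sharing mice and sample types. The nearest of the 292 others were miR-16-5p (0.76), miR-192-5p (0.79), miR-22-3p (0.81), miR-15a-5p (0.84) and miR-30e-5p (0.86), while a flat profile would lie at 1.40. All 5 had their highest mean in cuSCC, and 4 of them rose in mean from CHR to PAP to cuSCC, whereas miR-22-3p stood at 14.85 in CHR, 14.78 in PAP and 16.66 in cuSCC. miR-16-5p and miR-15a-5p belong to 1 seed family that restrains the cell cycle. The other arm, miR-21a-3p, was 15th at 1.04. Around miR-21a-3p the nearest profiles were miR-20a-5p (0.997) and miR-19b-3p (1.01), both transcribed from a proliferation-linked cluster of microRNAs, followed by miR-21a-5p. For this arm a flat profile would lie at 1.66. In CHR the means of miR-20a-5p, miR-19b-3p and miR-21a-3p were 3.47, 3.40 and 3.62, close to the lowest value of 3.32. These 3 profiles are thus alike in part through low or undetected values in CHR.

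**Figure D5:**
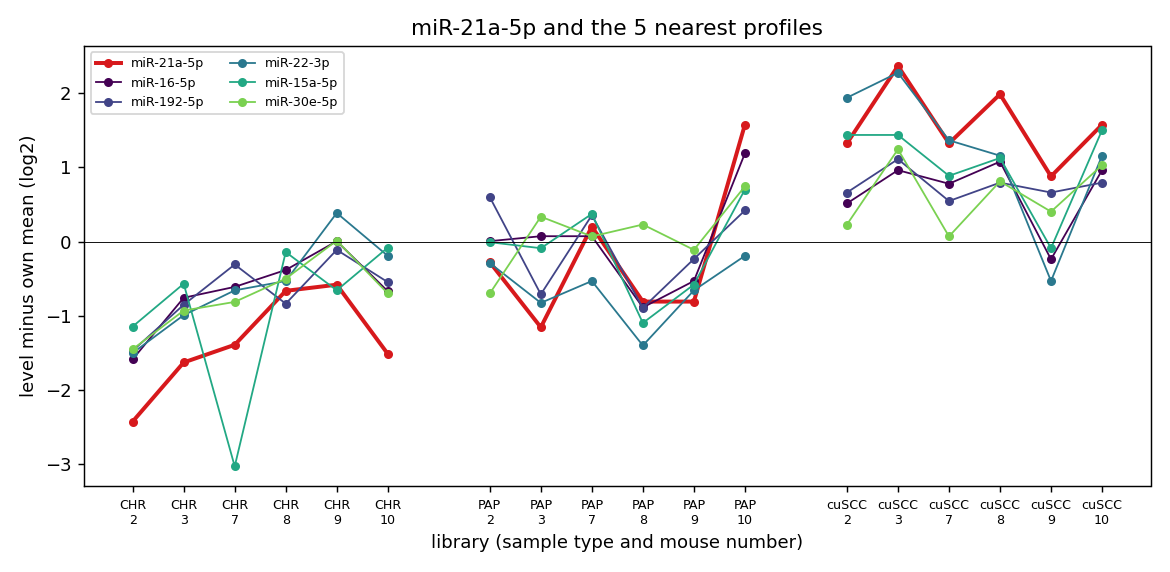
Level of miR-21a-5p (thick red) and of the 5 microRNAs with the nearest profiles in 18 libraries, each minus its own mean over all libraries, on the log2 scale. All 6 profiles have their highest mean in cuSCC, and in the PAP of mouse 10 miR-21a-5p stands above all 5 others.

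Other microRNAs that answer to the same transcription factors moved in both directions. Of 7 listed as induced by AP-1, NF-κB or STAT3, 6 were tested and miR-155-5p was never detected. Between CHR and cuSCC, 1 rose (miR-31-5p, by 2.72, limma adjusted p = 0.000189), 1 fell (miR-222-3p, by 1.45, limma adjusted p = 0.00233) and 4 did not pass, with a median of -0.09 against 0.11 over all microRNAs tested. The immune regulators miR-146a-5p and miR-146b-5p differed by -0.09 (limma adjusted p = 0.89) and -0.07 (limma adjusted p = 0.905). Between CHR and PAP, 4 of the 6 fell, namely miR-146a-5p, miR-146b-5p, miR-181b-5p and miR-222-3p, by 0.93 to 1.67, and 1 rose, with a median of -1.15 against -0.23. Over all microRNAs tested 14% were higher and 18.4% lower in this comparison, and 22.2% were lower in the former. Between PAP and cuSCC none of the 6 passed in limma, where 34 of the 293 microRNAs did (11.6%) and 83 had an unadjusted p under 0.05.

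The cellular makeup of the samples also varied. Keratinocyte microRNAs had the highest median sum of the marker lists in each sample type, with a summed level (log2 of summed ppm) of 17.50 to 18.51 in CHR, and of 17.77 to 18.55 and 17.50 to 18.54 in PAP and cuSCC, and 7 of 7 were detected in each type. Between PAP and cuSCC, where miR-21a-5p rose, 3 of 5 fibroblast and smooth muscle, 2 of 2 endothelial, 3 of 3 skeletal muscle and 1 of 4 leukocyte microRNAs also passed as higher, as did 9.22% of all tested. As lower passed 1 of 7 keratinocyte microRNAs (miR-200c-3p) and 1 of 2 erythroid ones (miR-486-5p), and 2.39% of all tested. The summed fibroblast and smooth muscle level was 13.96 to 14.65 in CHR, and in PAP and cuSCC it was 10.67 to 13.91 and 12.45 to 15.46. Leukocyte microRNAs summed to 13.13 to 14.28, 9.06 to 11.83 and 11.14 to 12.60, endothelial ones to 7.84 to 9.35, 7.61 to 9.0 and 9.26 to 11.17, and skeletal muscle ones to 15.44 to 15.98, 5.32 to 12.45 and 6.04 to 14.24 in the same order. Undetected members count at 10 ppm in all these sums, and 3 of 4 skeletal muscle microRNAs were never detected in PAP, where detection limits were highest. Erythroid microRNAs summed to 16.69 to 17.84, 16.70 to 18.24 and 14.86 to 17.87. Such a sum follows its most abundant members and can hide opposite courses. Between cuSCC and CHR, miR-142-5p of leukocytes differed by 1.53 (limma adjusted p = 0.0132), but miR-150-5p by -2.33 and miR-342-3p by -2.86. Of the erythroid microRNAs, miR-451a differed by 3.99 (limma adjusted p = 0.000747) and miR-486-5p by -1.27 (limma adjusted p = 0.0325). In the PAP of mouse 10, where both miR-21a arms were highest among PAP, the fibroblast and leukocyte sums were the lowest of all PAP libraries, at 10.67 and 9.06. In that library the keratinocyte sum was 18.53, the endothelial 8.97, the erythroid 17.88 and the skeletal muscle sum, at the lowest PAP value, 5.32. In the cuSCC of mouse 10 the fibroblast and leukocyte sums were also the lowest of that type, at 12.45 and 11.14, as was that of skeletal muscle (6.04). The keratinocyte and erythroid sums were the highest of cuSCC, at 18.54 and 17.87, and the endothelial sum was 9.93. There miR-21a-5p stood at 15.03, between 3 lower and 2 higher cuSCC libraries. Between CHR and cuSCC, 3 of 7 keratinocyte, 2 of 2 endothelial, 1 of 4 leukocyte and 1 of 2 erythroid microRNAs passed as higher, as did 20.1% of all tested. In the same comparison 2 of 4 leukocyte, 1 of 3 skeletal muscle and 1 of 2 erythroid microRNAs passed as lower, as did 22.2% of all tested, and none of the 5 listed for fibroblasts and smooth muscle passed in limma. miR-145a-5p of smooth muscle, added to these after its values were seen, was lower by limma in cuSCC (-1.78, adjusted p = 0.014) and in PAP (-2.83, adjusted p = 0.000452) than in CHR, and its difference between cuSCC and PAP of 1.05 did not pass (adjusted p = 0.252). Between CHR and PAP, 4 of 7 keratinocyte and 1 of 2 erythroid microRNAs passed as higher, as did 14% of all tested. In that comparison 2 of 4 leukocyte, 2 of 5 fibroblast and smooth muscle and 3 of 3 skeletal muscle microRNAs passed as lower, as did 18.4% of all tested. The part of these cell types in the levels of miR-21a was not tested beyond these values.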

How the data were processed

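The authors sequenced small RNA from 18 samples, removed adapters and unusable reads, assigned reads to miRBase microRNAs by BLAST and scaled them to ppm of usable reads. The deposited values are log2 values with a lowest value of 3.32. The log2 scale, the quantile normalization and this limit were read from the values. The labels name mm10, and tool versions were not given in the sources used here. Library totals were not used, so depth is unknown and intervals leave out counting error.

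The 293 microRNAs detected in 6 or more of 18 libraries were fitted with limma 3.58.1 in R 4.3.3, between 2 sample types at a time and without a term for mouse (two-sided, Benjamini-Hochberg adjustment over all tested, threshold 0.05). Arm differences of 67 hairpins were fitted likewise. The 3 comparisons share libraries and are not independent. Single values were compared with exact permutation tests, which cannot give a p under 0.00216 here (Python 3.11.15, numpy 2.4.6, pandas 2.3.3, scipy 1.17.1, with plots by matplotlib 3.10.9). On simulated data for 293 microRNAs limma recovered 92 of 100 changed ones, with 7 false calls among the unchanged rest. For 67 hairpins it recovered 14 of 15 changed arm differences, with 0 false calls among the unchanged rest. Both were for changes of 2 on the log2 scale. The simulated spread was that of single microRNA levels in CHR, also for the arm differences, and no lowest value was imposed. In the main fits the arm difference of miR-21a changed by less than the simulated amount, so this recovery does not speak to it. Recovery was not tested separately for microRNAs with undetected values or for the wide spread of the arm difference in PAP.

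Replicate numbers are mouse numbers, so equal numbers mark 1 animal, which pairs the samples. Deviations of paired libraries from their type means correlated at 0.025 (PAP and CHR), -0.0676 (cuSCC and CHR) and 0.0582 (cuSCC and PAP) on average. The limma p-values measure the spread between libraries of a type, each from a different one of these mice. With 1 library of each type per mouse, differences between mice and between tissue pieces of a mouse cannot be told apart.

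The rule for named microRNAs covered the miR-21a arms, entries with their seeds, miR-21b and miR-21c, the miR-31 arms, a list of microRNAs induced by the same transcription factors, a second list that is not reported here, the nearest profiles (5 for miR-21a-5p, 3 for miR-21a-3p), and the 3 highest levels and arm differences of each type. Other hairpins with a joint rise, and list members given by value, were named after their values were seen. Markers covered keratinocytes, leukocytes, fibroblasts and smooth muscle, endothelium, skeletal muscle and erythroid cells. miR-145-5p was listed under a name that the table does not use, so miR-145a-5p is given apart from the list counts, and miR-155-5p, miR-142-3p, miR-1a-3p and miR-144-3p were detected too rarely to be tested. Members, lists and tests were chosen with earlier results of these data known. Alternatives were other filters, a joint fit, the mouse block, centring, different treatments of low values, an unmoderated test, an exact test and leaving out each mouse. Leaving out only the PAP or only the cuSCC library of mouse 10 was added after seeing the data.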

Additional observations from a re-analysis of the deposited data

Results flagged for a closer look

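In 12 groups of 6 libraries, the highest or lowest value was set against the range of its group, and 2 values stood far from the rest. For groups of 6 independent, normally spread values, chance would flag about 1 in 20. That rate does not hold for groups with values tied at the lowest value, as for miR-21a-3p in CHR, and the groups share libraries. miR-21a-3p in the CHR of mouse 9 was at 4.67, with 3.42 and 3.69 in mice 10 and 8 and the other 3 CHR libraries undetected. The undetected libraries stand at 3.32 here, although the detection limit of mouse 7 was 5.77, above this value. miR-21a-5p minus miR-31-5p was -1.99 in the CHR of mouse 2, where miR-21a-5p had its lowest value (11.03) and miR-31-5p its highest CHR value (13.02), and the other 5 lay between -0.06 and 0.85.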

How the results depend on the processing

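The rise of miR-21a-5p between CHR and cuSCC kept its direction and passed in limma, or in the exact permutation test, under every alternative tried, with 2.73 to 3.24 when each mouse was left out. For the other comparisons of the arms the outcome depended on the setting, and the cause was not tested. Where filters or samples were changed, fewer or more microRNAs entered the adjustment. Differences are on the log2 scale and p-values are adjusted ones from limma unless another test is named.

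Between PAP and CHR, miR-21a-5p (1.15) passed with a filter of detection in all 18 libraries (adjusted p = 0.0283), with the sample types fitted together (adjusted p = 0.0467) and in the exact permutation test alone (p = 0.0281), and leaving out each mouse gave 0.77 to 1.43. miR-21a-3p passed with the types fitted together (1.87, p = 0.0495) and with undetected values at the detection limit (2.14, p = 0.0113), and ranged from 1.12 to 2.24 without 1 mouse. Its arm difference was 0.76 under a floor of 100 ppm (adjusted p = 0.066), where the 3p arm is mostly at the floor, and -1.17 to -0.30 without 1 mouse. Between cuSCC and CHR, miR-21a-3p was 0.11 under 100 ppm (adjusted p = 0.253) and 2.53 to 3.02 without 1 mouse. The arm difference was 2.83 under 100 ppm (adjusted p = 1.55e-07), where the 3p arm is almost always at the floor, -0.0774 without mouse 2 (adjusted p = 0.852) and up to 0.38 without another mouse. Between cuSCC and PAP, miR-21a-5p (1.79) did not pass without a filter (adjusted p = 0.0646), under the replicate block for mouse (adjusted p = 0.0549) or in an unmoderated equal-variance test (adjusted p = 0.0569), and without 1 mouse it was 1.44 to 2.15 and passed only without mouse 10. miR-21a-3p turned to -0.0670 with undetected values at the detection limit (adjusted p = 0.924) and to -0.28 under 100 ppm (adjusted p = 0.683), with 0.29 to 1.42 without 1 mouse. The arm difference passed at 1.85 with undetected values at the detection limit (adjusted p = 0.0046), with 0.63 to 1.5 without 1 mouse. It also passed at 2.07 under 100 ppm (adjusted p = 0.000306), where the 3p arm is mostly at the floor. With detection required in all 18 libraries, miR-21a-3p and its arm difference could not be tested.

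miR-21a-5p minus miR-31-5p between cuSCC and CHR was -0.0761 without mouse 2 and up to 0.46 without another mouse. Between cuSCC and PAP it was 2.28, also in the replicate block by mouse (exact sign-flip permutation p = 0.0625, where the smallest possible is 0.0312). Both are descriptions, as the comparison was chosen with these values known.

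The number of microRNAs passing between PAP and CHR was 95, and 52 with detection in all libraries and 55 to 79 without 1 mouse. Between cuSCC and CHR it was 124, with 71 and 77 to 129 under the same settings and 131 without the cuSCC of mouse 10. Between cuSCC and PAP it was 34, with 20 and 1 to 59 under the same settings, 2 without a filter, 80 with undetected values at the detection limit, 21 under 100 ppm, 6 in the unmoderated test and 15 without the PAP of mouse 10. The number of hairpins whose arm difference passed between PAP and CHR was 5, with 2 for detection in all libraries, 10 without a filter, 2 with the replicate block, 13 with undetected values at the detection limit, 21 under 100 ppm and 3 to 7 without 1 mouse. Between cuSCC and CHR it was 28, with 6 for detection in all libraries, 14 with the types fitted together and 16 to 29 without 1 mouse. Between cuSCC and PAP it was 3, with 1 for detection in 3 or more libraries, 12 with undetected values at the detection limit, 1 in the unmoderated test, 5 without the PAP of mouse 10 and 0 to 5 without 1 mouse. With detection in all libraries limma called 0 of 16 hairpins there, 3 of them with an unadjusted p under 0.05, and without mouse 8 it called 0 of 67, 7 of them with an unadjusted p under 0.05. The replicate block changed no other call of the miR-21a arms.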
